A study of Mus musculus with 6 samples.

Results

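Secretoglobins are small proteins secreted into the fluid that lines the airways, and together with a set of enzymes they mark the club cell, the secretory cell of the mouse bronchiolar epithelium. Here 9 such genes were followed, namely Scgb1a1, Scgb3a1, Scgb3a2, Cyp2f2, Cyp4b1, Muc5b, Sec14l3, Cbr2 and Aldh1a7, and every row of the array table whose gene symbol equals one of these names was taken. The table held rows for 8 of the 9 genes, out of 18138 gene symbols in all. These genes had 11 probes among 25697, and all 11 were tested. For Muc5b, which encodes a gel-forming mucin of the airway, no row carried the symbol.

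Transcripts were measured in whole lungs of male FVB pups (FVB/N in the study's methods) on postnatal day 6, with 1 array of an Illumina BeadChip for each of 3 hSRY-OFF and 3 hSRY-ON mice. A chip of this kind carries several arrays, and which mice shared a chip is not given in the sources used here. Both groups are named for a human SRY transgene called Signalox-hSRY, which was placed as a single copy at the H11 locus. In this construct the broadly active CAG promoter first drives the fluorescent protein DsRed, and Cre recombinase removes that segment so that human SRY and EGFP are made instead. The hSRY-ON pups had recombined the transgene in the early embryo through Cre carried by the oocytes of Ddx4-Cre mothers, so activation was not limited to the lung or to any cell type, and pups that had inherited Ddx4-Cre itself were avoided. The hSRY-OFF label denotes the transgene without recombination, although the study also calls its comparison pups littermate controls, and a genotype for each pup was not given in the sources used here. A single responder line was used. The array carries no probe for human SRY, so the activity of the transgene could not be read from it.

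Club cells line the small airways of the mouse and are known for abundant secretion of Scgb1a1, for cytochrome P450 enzymes that metabolise inhaled compounds, and for their role as progenitors of other airway cells. Scgb1a1 (also called CC10 or uteroglobin) is their classical product. Scgb3a1 and Scgb3a2 are related secretoglobins, and Scgb3a2 appears early in the developing airway epithelium. In the first postnatal week the bronchiolar epithelium of the mouse is still maturing.

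The values below are normalized intensities on the log2 scale, and a change is the mean of hSRY-ON minus the mean of hSRY-OFF on that scale. A probe was called when its limma p-value, adjusted by Benjamini-Hochberg over the 13841 probes that passed a detection filter, was under 0.05. Arrays correlated at 0.991 to 0.993 within hSRY-OFF, at 0.972 to 0.980 within hSRY-ON and at 0.935 to 0.959 between groups, and 13191 to 14134 probes were detected on each array. The lung markers Sftpc (alveolar type II cells) and Ager (alveolar type I cells) were detected on all 6 arrays, with means of 14.28 and 13.87 in hSRY-OFF and 14.03 and 13.84 in hSRY-ON. Intensities of different probes depend on the probe, so levels are compared only between groups for the same probe. In whole lung RNA, more cells of a type and more RNA per cell cannot be told apart.

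The club cell genes were mostly higher in hSRY-ON lungs. Of the 11 probes 8 were called higher, covering 6 genes (Scgb3a1, Scgb3a2, Cyp2f2, Cyp4b1, Sec14l3 and Cbr2), and 0 were called lower. At an unadjusted p under 0.05 in limma these counts were 9 and 0. Among all tested probes 26.9% were called, 13.6% higher and 13.3% lower. The groups did not overlap, with every hSRY-ON array above every hSRY-OFF array, for 9 of the 11 probes, against 22.4% of all tested probes. The median change of the 11 probes was 0.91, against -0.03 for all tested probes. A called rise of at least 1 on the log2 scale was seen for both probes of Scgb3a1, 1 probe of Scgb3a2, Cyp2f2 and Cyp4b1, and for 5.51% of all tested probes. The exact permutation test of 1 probe cannot give a p below 0.1 with 3 arrays against 3, and it gave 0.1 for the 9 probes without overlap, 1 for Scgb1a1 and 0.3 for Aldh1a7.

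**Figure D1:**
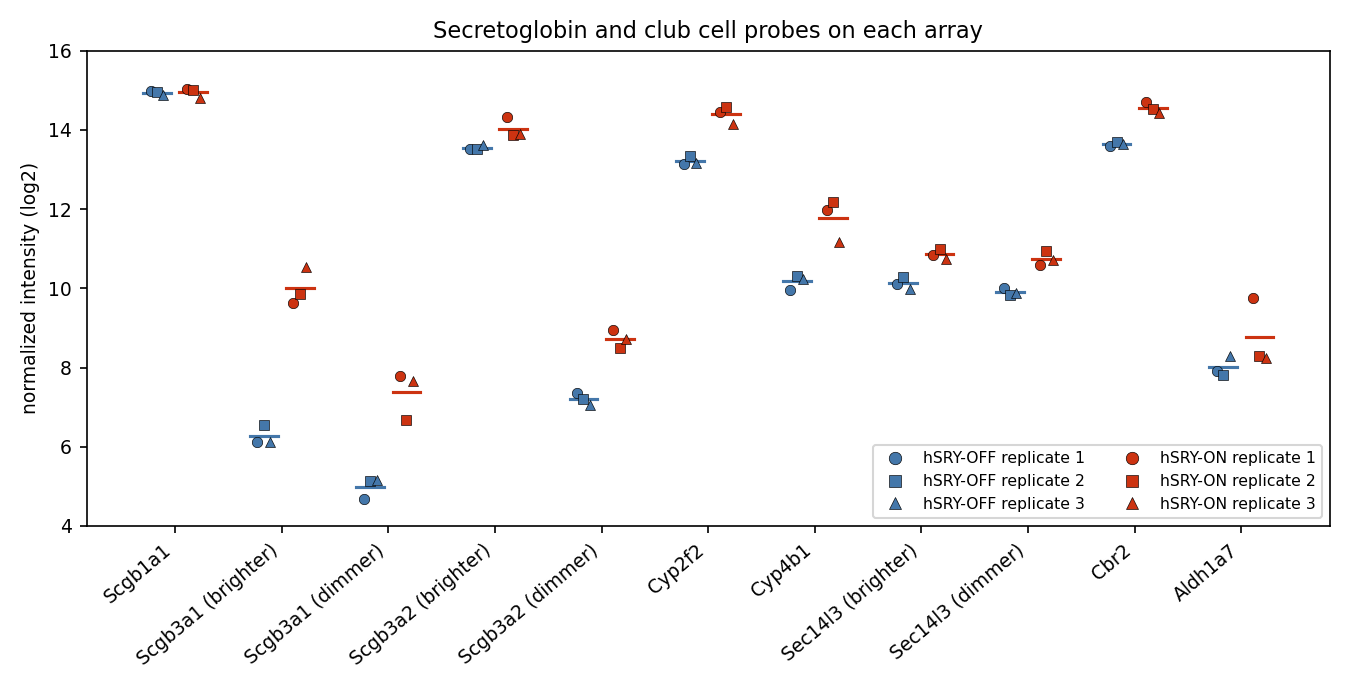
Normalized intensity (log2) of each of the 11 probes on each array. Blue marks are hSRY-OFF and red marks hSRY-ON lungs, the mark's shape gives the replicate and the bar is the mean of 3 arrays. For genes with a pair of probes the brighter and the dimmer are named. The groups are apart for all probes except those of Scgb1a1 and Aldh1a7, and the widest gap is that of the brighter Scgb3a1 probe, from 6.26 to 10.01.

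Scgb3a1 showed the steepest rise of the group. Its brighter probe read 6.12, 6.56 and 6.11 on the 3 hSRY-OFF arrays and 9.63, 9.85 and 10.54 on the 3 hSRY-ON arrays. The lowest hSRY-ON array thus lay 3.08 above the highest hSRY-OFF array. The change was 3.75 ± 0.26 (SE), or 13.4-fold, with a 95% interval of 3.15 to 4.35 (limma, adjusted p = 0.000603), and it ranked 7 among the rises of all 13841 tested probes. As deposited, before any background was removed, the same probe had intensities of 209.0, 224.0 and 230.2 in hSRY-OFF and 842.7, 1034 and 1730 in hSRY-ON, a ratio of means of 5.44. The median intensity of an array was 177.1 to 204.0. The size depended on the background correction, and without it the change was 2.36 (limma, adjusted p = 0.000294).

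The dimmer Scgb3a1 probe was not well above background on any hSRY-OFF array, where it read 4.67, 5.13 and 5.16, and was detected on all 3 hSRY-ON arrays at 7.78, 6.68 and 7.66. Its change is given as a bound. After background correction the hSRY-ON mean was at least 4.23-fold higher than the lowest signal that counted as detected in hSRY-OFF (limma, adjusted p = 0.00302). This bound depends on that correction. Without it the fitted change was 0.84 (limma, adjusted p = 0.00466), and the deposited intensities had a ratio of means of 1.80. The brighter probe, in contrast, was detected on all 6 arrays. The order of the hSRY-ON arrays differed between them, with replicate 3 highest for the brighter probe and replicate 1 for the dimmer.

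Because Scgb3a1 changed most, the bases before its start site are shown, with those of the P450 gene Cyp2f2, the other gene whose promoter held a searched motif. Promoter windows taken from RefSeq (GRCm38.p6) were at hand for 6 of the 9 genes, Scgb1a1, Scgb3a2 and Muc5b not being analysed here, and the 250 bases upstream of each start were searched on both strands for AACAAT and AACAAAG (SRY and SOX proteins), TGTTTAC and TGTTTGC (forkhead proteins), TTGCNNAA (C/EBP proteins) and CACTTGA and CTCAAGA (NKX2-1). Capitals mark the matches, which do not overlap each other. The Scgb3a1 window (plus strand, chr11:49663345-49663594) holds CACTTGA at -174 to -168 from the start and TGTTTGC, read on the other strand, at -55 to -49. The Cyp2f2 window (plus strand, chr7:27119705-27119954) holds CACTTGA on the other strand at -192 to -186.
Scgb3a1: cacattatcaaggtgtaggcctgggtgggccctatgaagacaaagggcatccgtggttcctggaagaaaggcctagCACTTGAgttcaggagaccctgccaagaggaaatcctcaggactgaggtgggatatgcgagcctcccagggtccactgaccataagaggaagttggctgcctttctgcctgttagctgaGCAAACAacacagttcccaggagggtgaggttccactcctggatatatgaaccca
Cyp2f2: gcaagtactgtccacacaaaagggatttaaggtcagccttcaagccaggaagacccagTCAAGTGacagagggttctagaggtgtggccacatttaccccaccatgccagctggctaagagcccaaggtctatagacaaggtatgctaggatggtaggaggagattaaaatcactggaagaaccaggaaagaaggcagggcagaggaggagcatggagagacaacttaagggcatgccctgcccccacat

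Among the 32851 promoter windows of the same length, 2.68% held CACTTGA, 3.60% CTCAAGA, 4.30% TGTTTGC, 3.17% TGTTTAC and 9.56% TTGCNNAA. AACAAT was present in 9.42% of all windows and AACAAAG in 5.03%, and these letters were in 0 of the 6 windows of the club cell genes. The windows of Cyp4b1, Sec14l3, Cbr2 and Aldh1a7 held none of the 7 motifs. These matches describe the letters of a window only, and factor binding was not measured here.

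Scgb3a2 was represented by a pair of probes that differed in the size of their change. The brighter probe, which ranked between 63 and 186 of 25697 by intensity, read 13.53, 13.53 and 13.61 in hSRY-OFF and 14.33, 13.87 and 13.91 in hSRY-ON. All hSRY-ON arrays were higher, by 0.48 ± 0.15 (SE), but the probe missed the threshold (limma, adjusted p = 0.0571). The dimmer probe read 7.35, 7.20 and 7.06 in hSRY-OFF and 8.96, 8.49 and 8.72 in hSRY-ON, a called rise of 1.52 ± 0.16 (SE) or 2.86-fold (limma, adjusted p = 0.00166). Deposited intensities of the brighter probe were 11293, 10399 and 13788 in hSRY-OFF and 20124, 16238 and 16439 in hSRY-ON, a ratio of means of 1.49. For the dimmer probe this ratio was 1.81. Both probes thus moved the same way. The brighter one was past the threshold in 9 of the 17 other settings, where its adjusted p ranged from 0.00693 to 0.157.

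Scgb1a1, the classical club cell product, did not pass the test and stood near the top of the array's range. It read 14.98, 14.96 and 14.89 in hSRY-OFF and 15.04, 15.01 and 14.81 in hSRY-ON, so that the hSRY-ON arrays included both the highest and the lowest value. The change was 0.01 ± 0.12 (SE), with a 95% interval of -0.27 to 0.28 (limma, adjusted p = 0.972). Deposited intensities were 31217, 29488 and 32594 in hSRY-OFF and 33784, 33496 and 31662 in hSRY-ON, a ratio of means of 1.06, where the brightest probe of each array read 43102 to 46971. By intensity the Scgb1a1 probe ranked between 12 and 27 of 25697 on the 6 arrays. Calls were fewer among the brightest probes. Of the 30 tested probes with the highest means 1 was called (3.33%) and the largest rise was 0.33, and of the highest 100 probes 15 were called (15%), with a largest rise of 1.31 and a largest fall of -1.05. With other normalizations the Scgb1a1 change was 0.18 (median scaling), 0.12 (a single scaling factor without background correction) and -0.03 (cyclic loess), and the probe was not called in any of them. The part that signal close to the top of the range played was not tested.

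The 3 secretoglobins were compared with each other by subtracting the values of their brightest probes within each array. The change of Scgb3a1 exceeded that of Scgb1a1 by 3.74, the change of Scgb3a2 exceeded that of Scgb1a1 by 0.47, and the change of Scgb3a2 was -3.27 relative to that of Scgb3a1. In each of the 3 pairs the groups did not overlap, and the exact permutation p was 0.1 (0.1 after adjustment over the 3 pairs), the smallest that 3 arrays against 3 allow. The values rest on 1 probe per gene. The dimmer probes, which after background correction changed by 1.52 for Scgb3a2 and by at least 4.23-fold for Scgb3a1, were not compared in this way. Without background correction the difference between Scgb3a1 and Scgb1a1 was 2.35 and that between Scgb3a2 and Scgb3a1 was -1.88.

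**Figure D2:**
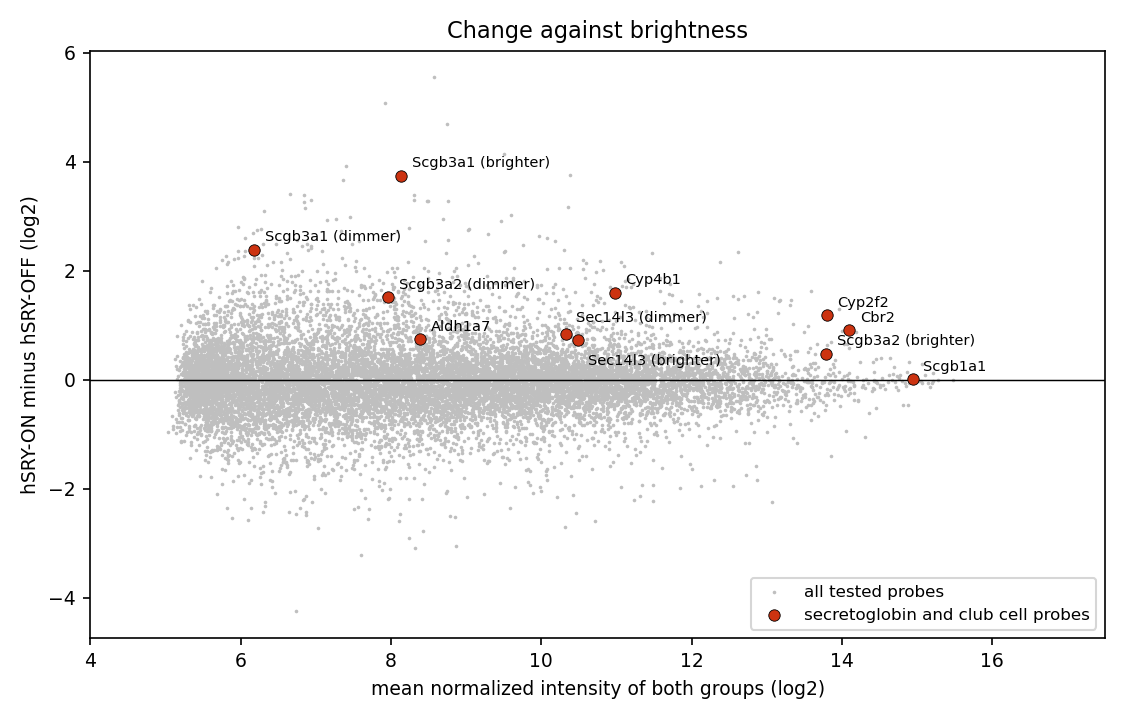
Change (hSRY-ON minus hSRY-OFF, log2) against the mean normalized intensity of both groups (log2). Grey points are the 13841 tested probes and red points the 11 club cell probes. The spread of changes narrows to the right, where Scgb1a1 lies at a change of 0.01, while Cyp2f2, at 1.18, and Cbr2, at 0.91, lie above most points of like brightness.

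The cytochrome P450 genes rose. Cyp2f2, the P450 that activates naphthalene in mouse club cells, read 13.15, 13.33 and 13.16 in hSRY-OFF and 14.45, 14.59 and 14.15 in hSRY-ON. The change was 1.18 ± 0.15 (SE), or 2.27-fold (limma, adjusted p = 0.00296), and deposited intensities averaged 9402 ± 744 (SD, n = 3) and 22640 ± 2693 (SD, n = 3). Cyp4b1, a P450 abundant in lung, read 9.96, 10.32 and 10.25 in hSRY-OFF and 11.99, 12.18 and 11.17 in hSRY-ON. Its change was 1.60 ± 0.27 (SE), or 3.03-fold (limma, adjusted p = 0.00717). For both genes the hSRY-ON groups lay wholly above hSRY-OFF, with hSRY-ON replicate 3 the lowest of the 3.

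Cbr2, a carbonyl reductase of lung that reduces aldehydes and ketones, read 13.59, 13.69 and 13.65 in hSRY-OFF and 14.71, 14.54 and 14.42 in hSRY-ON. This was a rise of 0.91 ± 0.12 (SE), or 1.88-fold (limma, adjusted p = 0.00366). Sec14l3, a member of the SEC14 family of lipid-binding proteins, rose by similar amounts on both of its probes. The brighter read 10.10, 10.28 and 9.99 in hSRY-OFF and 10.83, 10.98 and 10.75 in hSRY-ON, a change of 0.73 ± 0.13 (SE) (limma, adjusted p = 0.00886). The dimmer read 10.00, 9.82 and 9.88 in hSRY-OFF and 10.59, 10.93 and 10.73 in hSRY-ON, a change of 0.85 ± 0.13 (SE) (limma, adjusted p = 0.00589). These were the smallest rises among the called probes of the group.

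Aldh1a7 encodes a cytosolic aldehyde dehydrogenase very similar to Aldh1a1, and its value rested on 1 array. It read 7.92, 7.82 and 8.30 in hSRY-OFF and 9.77, 8.29 and 8.25 in hSRY-ON. Replicate 1 of hSRY-ON stood well above all other arrays, and the remaining hSRY-ON arrays lay inside the hSRY-OFF range. The change was 0.75 ± 0.40 (SE) and did not pass the test (limma, adjusted p = 0.206), and without hSRY-ON replicate 1 it was 0.25 (limma, adjusted p = 0.296). Aldh1a1 had the same highest array. It read 6.79, 7.42 and 7.77 in hSRY-OFF and 10.22, 8.98 and 8.11 in hSRY-ON, a called change of 1.78 ± 0.52 (SE) (limma, adjusted p = 0.0426).

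Aldh1a7 and Aldh1a1 lie on the same chromosome and resemble each other up to the start site. Whether either probe also reads the other transcript was not tested. RefSeq (GRCm38.p6) gives 2 starts for Aldh1a1. In the last 100 bases before the Aldh1a7 start (minus strand, chr19:20727557-20727656) and before the more similar Aldh1a1 start (plus strand, chr19:20601868-20601967), 94 positions are identical without gaps. They are shown in capitals, and the 6 positions that differ are in lower case.
Aldh1a7: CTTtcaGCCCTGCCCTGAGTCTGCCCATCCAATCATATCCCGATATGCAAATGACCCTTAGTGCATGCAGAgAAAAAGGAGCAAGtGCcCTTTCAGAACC
Aldh1a1: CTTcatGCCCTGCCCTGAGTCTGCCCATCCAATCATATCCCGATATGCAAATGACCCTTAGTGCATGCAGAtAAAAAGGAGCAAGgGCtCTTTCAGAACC

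Variation among the hSRY-ON arrays was uneven. The mean deviation of the 11 probes from the hSRY-OFF mean was 1.46 on hSRY-ON replicate 1, 1.22 on replicate 2 and 1.19 on replicate 3. Replicate 1 was the highest hSRY-ON array for 6 probes, replicate 2 for 4 and replicate 3 for 1, and replicate 3 was the lowest for 6. The SD was larger in hSRY-ON than in hSRY-OFF for 10 of the 11 probes, as it was for 73.6% of all tested probes. When each array was left out in turn, 7 or 8 of the club cell probes were called higher and 0 lower, while between 6.80% and 15.1% of all tested probes were called higher. The lower number arose without any 1 hSRY-ON array, when the dimmer Scgb3a1 probe no longer passed the detection filter.

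Many other enzymes of the airway epithelium were also higher. A list of 28 genes for oxidation, conjugation and reduction of foreign compounds had 23 tested genes, counted by the brightest probe of each. Of these, 16 were called higher and 0 lower, where 13.6% of all tested probes were called higher and 13.3% lower. The median change of the 23 genes was 1.15, against -0.03 for all tested probes. By the same count per gene 5 of the 8 club cell genes were called, with a median of 0.83. Fmo2, a flavin monooxygenase of lung, changed by 2.45 ± 0.15 (SE) (limma, adjusted p = 0.000478), from 5.71 to 8.17. Aox3, an aldehyde oxidase, changed by 2.55 ± 0.18 (SE) (limma, adjusted p = 0.000617). The P450 Cyp2s1 changed by 1.72 ± 0.12 (SE) (limma, adjusted p = 0.000603) and Dcxr, a carbonyl reductase, by 1.42 ± 0.12 (SE) (limma, adjusted p = 0.000934). The count was 11 without hSRY-OFF replicate 2 and between 12 and 16 without any other single array.

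The 7 tested enzymes that did not pass included the glutathione transferases Gstm1, Gstm2 and Gstp1, the carbonyl reductases Cbr1 and Cbr3, Fmo1 and Cyb5a. Their changes ranged from -0.07 for Cbr1 to 0.71 for Gstm1. Cyp2a5 and Cyp2b10 belong to families of near-identical P450 genes, so signal from a relative cannot be told apart from their own.

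**Figure D3:**
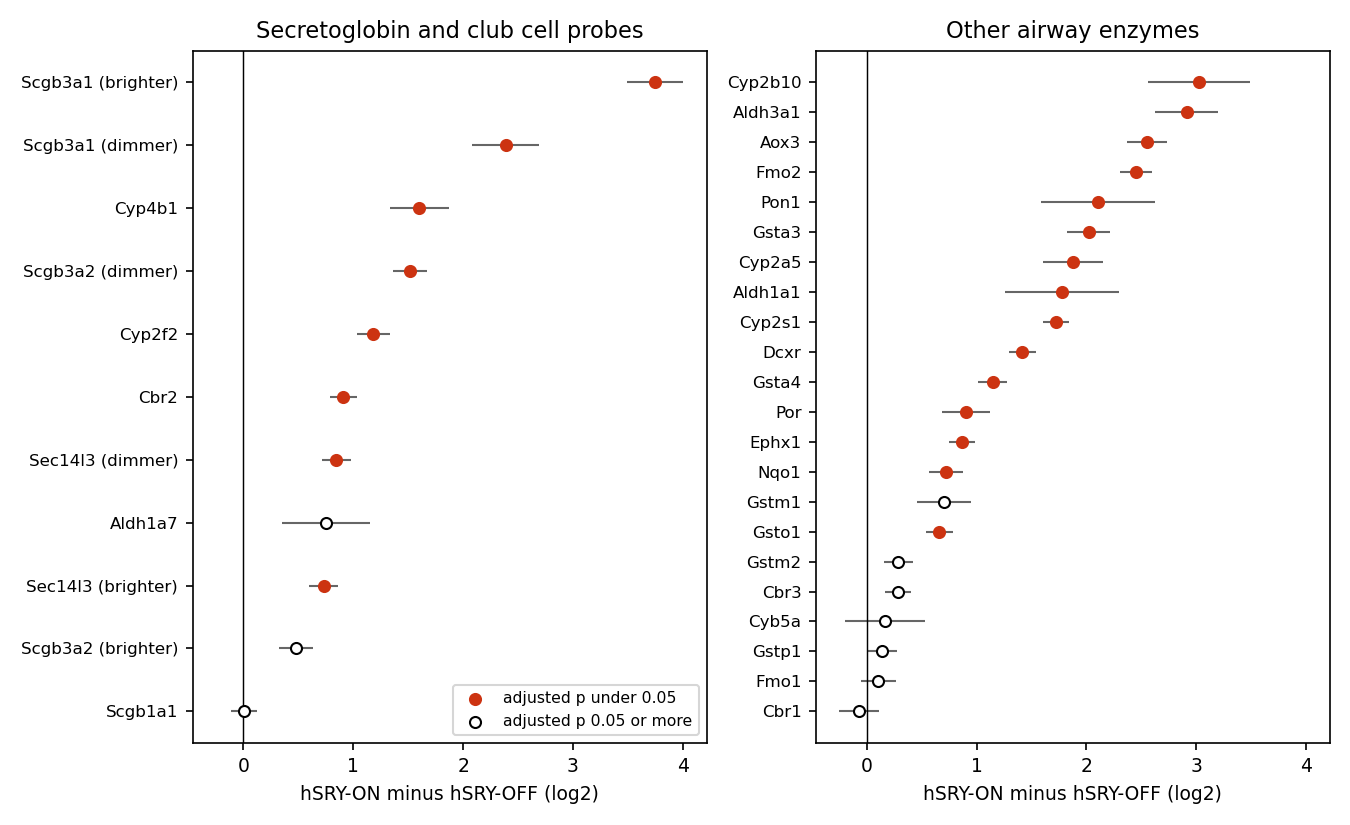
Change (hSRY-ON minus hSRY-OFF, log2, fitted) with its standard error for the 11 club cell probes (left) and 22 tested genes of the airway enzyme list (right, brightest probe of each gene). Filled points had an adjusted p under 0.05 in limma. Scgb3a1 lies at 3.75, and the enzyme points run from -0.07 for Cbr1 to 3.03 for Cyp2b10. The fitted value is drawn also for the dimmer Scgb3a1 probe, which was not detected in hSRY-OFF.

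Airway secreted and surface proteins changed less evenly. Of 25 genes 16 were tested, 9 were called higher and 1 lower, with a median change of 0.43, where 13.6% of all tested probes were called higher and 13.3% lower. Hp, which encodes the haemoglobin-binding protein haptoglobin, rose by 1.63 ± 0.11 (SE) (limma, adjusted p = 0.000603), and Gabrp, a GABA receptor subunit found in epithelia, rose by 1.32 ± 0.12 (SE) (limma, adjusted p = 0.00112). Sftpb, a surfactant protein made by club and alveolar type II cells, rose by 0.67 ± 0.11 (SE) (limma, adjusted p = 0.00800). Chad, which encodes chondroadherin, rose by 1.20 ± 0.25 (SE) (limma, adjusted p = 0.0148). Itm2a, an integral membrane protein, fell by 0.83 (SE 0.13, limma, adjusted p = 0.00644). When 1 hSRY-OFF array was left out, the count of rises was 5 for replicate 1, 4 for replicate 2 and 6 for replicate 3.

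Transcription factors and Notch pathway genes of the airway showed no common direction. Of 26 genes 21 were tested, 4 were called higher and 1 lower, and the median change was 0.09. With 13.6% of all tested probes called higher and 13.3% lower, these counts were not read as a result about the list. Those higher were Hey1, a target of Notch signalling (0.95 ± 0.15, SE, limma, adjusted p = 0.00621), Elf3 (1.10 ± 0.21, SE, limma, adjusted p = 0.0116), Klf5 (0.70 ± 0.16, SE, limma, adjusted p = 0.0183) and Grhl2 (0.52 ± 0.12, SE, limma, adjusted p = 0.0226), the last 3 being epithelial transcription factors. Nfib, a factor needed for lung maturation, fell by 0.98 (SE 0.14, limma, adjusted p = 0.00399). Nkx2-1, the lung lineage factor, changed by -0.42 on 1 probe and by 0.33 on the other (limma, adjusted p = 0.409 and 0.203). Foxa1 changed by 0.44 and Foxa2 by 0.11, and neither passed the test (limma, adjusted p = 0.0896 and 0.735). When 1 hSRY-OFF array was left out, the count of rises was 2 for replicate 1, 1 for replicate 2 and 2 for replicate 3. Leaving out hSRY-ON replicate 2 gave 2 rises and leaving out replicate 1 gave 6.

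Most ciliated cell markers were higher in hSRY-ON lungs, as the club cell genes were. Of the 9 tested ciliated cell markers 7 were called higher and 0 lower, with a median change of 1.48. The share of all tested probes was 13.6% called higher and 13.3% called lower. The same count of 7 was called when any 1 array was left out. The mean level of the list ran from 8.06 to 8.22 over the hSRY-OFF arrays and from 9.29 to 9.49 over the hSRY-ON arrays. Tppp3, the exception in sign, changed by -0.14 and did not pass (limma, adjusted p = 0.504). Tekt1, a protein of ciliary microtubules, changed by 1.72 ± 0.17 (SE) (limma, adjusted p = 0.00147), Cfap126, listed as 1700009P17Rik, by 1.63 ± 0.12 (SE) (limma, adjusted p = 0.000694), Spag6, of the ciliary axoneme, by 1.54 ± 0.14 (SE) (limma, adjusted p = 0.00106), Dynlrb2, a dynein light chain, by 1.38 ± 0.12 (SE) (limma, adjusted p = 0.00105), and Foxj1, the regulator of motile cilia, by 1.15 ± 0.19 (SE) (limma, adjusted p = 0.00647). For comparison, the mean level of the 8 club cell genes ran from 11.17 to 11.31 in hSRY-OFF and from 12.25 to 12.59 in hSRY-ON.

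Basal and neuroendocrine markers were also higher. Of the 4 tested basal markers 3 were called higher and 0 lower, where 13.6% of all tested probes were called higher and 13.3% lower. The 3 were the keratins Krt15 (change 2.46) and Krt14 (2.07) and Dlk2 (0.71). Krt15 and Dlk2 were each detected on 2 of the 3 hSRY-OFF arrays, with hSRY-OFF means of 5.58 and 5.37. Ngfr, the remaining marker tested, changed by -0.20 and did not pass (limma, adjusted p = 0.710). When either replicate 2 or 3 of hSRY-OFF was left out, 1 basal marker was called. The defining markers Krt5 and Trp63 were not detected on any array. The 4 tested neuroendocrine markers (Uchl1, Resp18, Calca and Scg5) were all called higher, with 2 called when either replicate 1 or 2 of hSRY-OFF was left out. Scg5 was detected on the hSRY-ON arrays only, and Chga was not detected on any array. Mean levels ran from 5.60 to 5.92 in hSRY-OFF and from 7.02 to 7.06 in hSRY-ON for the basal list, and from 6.10 to 6.30 and from 7.20 to 7.84 for the neuroendocrine list. The part that a larger airway share of the tissue played in the rise of the club cell genes was not tested.

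Goblet cell markers differed from this pattern. Clca1 (listed as Clca3), a protein secreted by mucous cells, read 8.98, 7.86 and 9.74 in hSRY-OFF and was not well above background on any hSRY-ON array, which puts hSRY-OFF at least 11.0-fold above hSRY-ON (limma, adjusted p = 0.00155). A probe that the array lists under the symbol Clca1 was not detected in either group. Whether it reads the same gene as the Clca3 probe was not tested. Leaving out any 1 hSRY-OFF array removed the Clca3 probe from the test by the detection filter. Muc5ac, the gel-forming mucin of goblet cells, changed by -0.86 and did not pass the test (limma, adjusted p = 0.236), with hSRY-ON arrays at 5.90, 5.08 and 7.29 around the hSRY-OFF range of 6.79 to 7.08. Foxa3 rose by 0.80 (limma, adjusted p = 0.0111), so 1 of the 4 tested markers was higher and 1 lower. Over all tested probes 13.6% were called higher and 13.3% lower, and these 2 counts were not read as a result about the list. Foxa3 was not called without hSRY-OFF replicate 2, and 3 of the 4 markers were called lower without hSRY-ON replicate 3. Their mean level ran from 6.92 to 7.67 in hSRY-OFF and from 5.48 to 6.85 in hSRY-ON.

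Alveolar and general epithelial markers moved less. Among the 6 alveolar type II markers Abca3 (0.60) and Napsa (0.48) were called higher and 0 lower, with a median change of 0.05. Among all tested probes 13.6% were called higher and 13.3% lower. Lamp3 (-0.31) and Sftpc (-0.25) were lower without overlap but did not pass (limma, adjusted p = 0.106 and 0.150). The dimmer Abca3 probe changed by -0.07 (limma, adjusted p = 0.908). When any 1 hSRY-OFF array, or replicate 2 of hSRY-ON, was left out, 1 of the 6 was called. With a variance trend and robust estimation 2 were called higher and 2 lower. Of the 5 tested alveolar type I markers 0 were called by limma and 0 had an unadjusted p under 0.05, with a median of 0.17. Among 5 tested general epithelial genes 3 were called higher, Krt19 by 1.18, Krt18 by 0.95 and Krt8 by 0.48, and 1 of them was called without any 1 hSRY-OFF array, while Cdh1 changed by 0.22 and did not pass (limma, adjusted p = 0.350). Epcam was not matched by name. General epithelial levels ran from 9.19 to 9.23 in hSRY-OFF and from 9.71 to 9.93 in hSRY-ON.

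**Figure D4:**
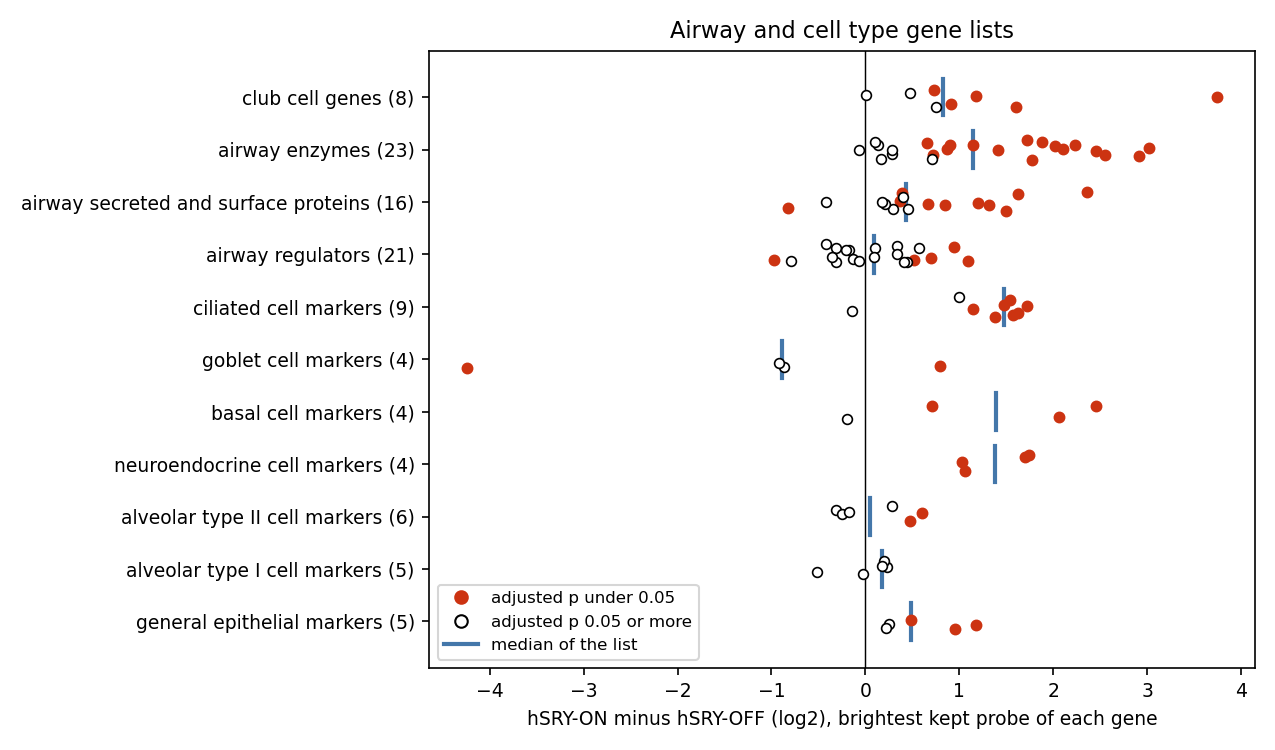
Change (hSRY-ON minus hSRY-OFF, log2, fitted) of the brightest tested probe of each gene, for the 8 club cell genes and 10 lists of airway and lung cell genes, with the number of tested genes in brackets. Filled points had an adjusted p under 0.05 in limma, and the blue bar is the median of a list, 1.48 for ciliated and 0.05 for alveolar type II markers. Points are spread vertically at random for legibility. The goblet marker at the far left is Clca1, drawn at its fitted value.

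Markers of tissues beside the lung were examined for the same libraries. Among all tested probes 13.6% were called higher and 13.3% lower, and with so few genes the counts below were not read as results. Of the 5 tested cardiac muscle markers Myl4 fell by 1.94 (limma, adjusted p = 0.00501) and 0 were called higher. Myl7 changed by -0.99 and did not pass (limma, adjusted p = 0.0719), and the change was above 0 for 2 of the 5. Of the 3 tested thymocyte markers 2 were called lower, Cd3e by 1.75 and Lck by 1.25. Ptcra changed by -0.26 and did not pass (limma, adjusted p = 0.451). When any array but hSRY-ON replicate 3 was left out, 1 marker was called. Cd8a, Rag1 and Themis were not detected. Whether these transcripts came from thymus tissue or from T cells within the lung was not tested. Of the 2 tested cartilage markers Col2a1 fell by 1.76 (limma, adjusted p = 0.00369), while Col9a1 changed by 0.44 and did not pass (limma, adjusted p = 0.143). Of the 2 tested hepatocyte markers Apoa1 was at least 2.15-fold higher in hSRY-ON (limma, adjusted p = 0.0237) but was not called, or was not tested, when any 1 array was left out, and Alb, Ttr and Fgb were not detected on any array.

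The probes of other genes whose values followed each secretoglobin most closely over the 6 arrays were sought among all tested probes. For Scgb3a1 they were Chpt1 (Pearson r = 0.999) and Tro (0.998), for Scgb3a2 Cdkn2b (0.995) and Gm114 (0.990), and for Scgb1a1 Crry (0.972) and EG622320 (0.968). These were the highest of the correlations with 13841 probes, over 6 arrays that share a group difference, and they are given as a description only.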

How the data were processed

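For each lung, biotin-labelled cRNA made from total RNA was read on 1 array of an Illumina MouseRef-8 BeadChip. The authors deposited an unnormalized table with, per probe and array, a linear intensity (mean bead signal) with its detection p-value. The deposited intensities were not background-corrected, and the software that summarised the beads is not given in the sources used here. The submitters' processing notes name limma, while the study's methods analyse the arrays with TCC, a count method that was replaced here by limma because the values are intensities.

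With limma 3.58.1 in R 4.3.3, the deposited intensities were turned into log2 values here by neqc, which takes the background from the detection p-values (normexp, offset 16) and applies quantile normalization. Background correction widens, and the offset narrows, the changes of dim probes, and quantile normalization gives all arrays 1 distribution. Probes with detection p under 0.05 on at least 3 of 6 arrays were kept, 13841 of 25697 (53.9%). Groups and replicate numbers came from sample titles. The comparison of hSRY-ON with hSRY-OFF was two-sided and had no covariates (lmFit, eBayes), with Benjamini-Hochberg adjustment across the kept probes. Nothing in the labels says that the mice came from separate litters, and p-values measure the spread between these arrays.

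A probe undetected on all arrays of a group was given as a bound, which sets the mean of the bright group against the dim group with each array raised, where needed, to its lowest detected value. Bounds were taken from the background-corrected values. Exact permutation tests used all 20 regroupings. Older symbols were matched through RefSeq synonyms (GRCm38.p6), with 14307 unchanged, 2927 renamed and 904 unmatched. Gene lists were described by the kept probe of highest mean per gene and no set test was run. Some genes of the lists are not reported here by name. Beside all 9 genes, the text names up to the 4 genes of smallest p past the threshold in each list, and Aldh1a1, Nkx2-1, Foxa1, Foxa2, Foxj1, Epcam, Sftpb and Chad whatever their result. Named after their values were seen were Grhl2, Tppp3, Ngfr, Myl7, Col9a1, Lamp3, Ptcra, Sftpc, Ager, Muc5ac, Cdh1, Cyp2a5 and Cyp2b10. So were the enzymes that did not pass and the undetected markers. The genes and lists were chosen with earlier results of these data known. Scripts were tested on simulated data. The alternatives were other background corrections, offsets, normalizations, filters, variance models and thresholds, array weights, a replicate block and leaving out each array. Array number limits the precision of every value.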

Additional observations from a re-analysis of the deposited data

How the results depend on the processing

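Over all alternatives 7 to 9 club cell probes were called higher and 0 lower. The brighter Scgb3a1 probe changed by 2.33 to 3.95 and the dimmer one, as fitted, by 0.81 to 2.46, with the lowest values in a setting without background correction. The other called probes of the group stayed called in every alternative in which they were tested. The brighter Scgb3a2 probe (adjusted p = 0.0571 in limma) passed the threshold in 9 of 17 alternatives and changed by 0.32 to 0.68. The change of Scgb1a1 turned sign with cyclic loess (-0.032) and with array weights (-0.0039), was 0.18 with median scaling and 0.12 with a single scaling factor and no background correction, and when 1 array was left out it ranged from -0.034 to 0.083. The 3 differences between secretoglobins kept their direction under no background correction, an offset of 50 and cyclic loess.

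Over all tested probes the number of calls was 1326 at an adjusted p under 0.01, where 8 club cell probes were still called, and ranged from 1504 (without hSRY-OFF replicate 1) to 4384 (without hSRY-ON replicate 1) when 1 array was left out. Leaving out replicate 2 of hSRY-OFF gave 1621 calls, replicate 3 of that group 2103, and replicate 2 of hSRY-ON 2393. At an adjusted p under 0.01 the airway enzymes called higher were 10, the secreted and surface proteins 4 and the regulators 1. With 1 array left out these counts ranged from 11 to 16, from 4 to 8 and from 1 to 6. The list counts under the alternatives were chosen after seeing the data. Why the counts moved was not tested, except that fewer arrays were used.

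Replicate numbers occur in both groups. Deviations from the group means correlated at -0.11, 0.10 and -0.09 between arrays of the same number, so the numbers were not taken to pair the mice. In a fit with the replicate block 2655 probes were called in all and 8 club cell probes, all higher, and not every array correlated best with its own number. Probes near background, such as those of Scgb3a1 in hSRY-OFF, are limited by signal over background.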
